A study of Homo sapiens with 16 samples.

Results

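The 40 genes described here encode the machinery that copies chromosomal DNA and enzymes that make deoxynucleotides. They were chosen by symbol: the MCM helicase subunits (MCM2 to MCM7), the origin licensing factors ORC1, ORC6, CDC6 and CDT1, the helicase activators CDC45, GINS1 to GINS4 and MCM10, the subunits of DNA polymerases alpha, delta and epsilon with primase, the clamp PCNA and its loader RFC1 to RFC5, the single-strand binding proteins RPA1 to RPA3, the Okazaki fragment enzymes FEN1 and LIG1, and the nucleotide enzymes RRM1, RRM2, TYMS and TK1. Each symbol matched 1 of the 60662 gene identifiers in the count tables, and all 40 genes were among the 14092 genes with enough reads to be tested. RNA-seq was made from Jurkat E6-1 cells, 1 established human T cell line with wild-type genotype in the labels, which give its cell type as lymphoma. The treated group held 8 libraries from cells moved to phosphate-buffered saline with 10 µM hydrogen peroxide, dosed per number of cells, and collected after 4 h. The control group held 8 libraries from untreated cells at 0 h. A group kept for 4 h in saline without peroxide was not analysed here, so the time, the change of medium and the peroxide cannot be told apart in any difference below.

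Replication origins are licensed in G1 phase, when the origin recognition complex with CDC6 and CDT1 loads the MCM helicase onto DNA. At the start of S phase CDC45 and the GINS complex join MCM to form the active helicase, polymerase alpha with primase lays primers, and polymerases delta and epsilon extend them, held to DNA by the PCNA ring that the RFC complex loads. Many of these genes are transcribed at the border of G1 and S phase by E2F transcription factors. In proliferating T cell lines the whole set is transcribed, and hydrogen peroxide is an oxidant that can damage DNA.

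Libraries held 5556553 to 15720881 reads in genes, and 4 libraries of each group came from each of 2 batches named in the deposited tables. The share of reads not aligned uniquely was 38.3% ± 4.33 after peroxide and 34.1% ± 5.43 in controls (SD over 8 libraries each; p = 0.107 in a two-sided exact permutation test); in batch 2 alone it was 40.8% ± 4.46 against 32.8% ± 0.942 (exact permutation p = 0.0286, the smallest that 4 against 4 can give), and in batch 1 alone 35.9% ± 2.83 against 35.3% ± 7.98 (exact permutation p = 0.943). The share of counted reads in rows that name no gene was 51.2% ± 3.07 after peroxide and 46.8% ± 4.53 in controls (SD over 8 libraries each; p = 0.0430 in a two-sided exact permutation test). The part of these measures in the results was not tested. When the 2 libraries with the highest shares, control 1 (47.2%) and peroxide 5 (45.8%), were left out, FEN1 was also called. The call or lack of one was the same for the other 39 genes. This does not remove the difference in batch 2. Its remaining treated libraries, at 35.7% to 42.8%, still lay above its controls, which reached at most 33.7%. All 10 T cell markers were detected, with a summed level of 2877 to 3763 CPM after peroxide and 2797 to 3797 CPM in controls (CPM, counts scaled to a common library size with TMM factors), and CD3G, CD2 and CD28 were lower after peroxide. Of 5 myeloid markers CD14 and ITGAM passed the filter, through the peroxide libraries alone, so their higher calls are not independent of the filter. CD14 had 213 reads after peroxide and 22 in controls over all libraries, and ITGAM 286 and 15. The 5 markers summed to 4.46 to 15.6 CPM after peroxide against 0.500 to 1.16 CPM in controls. The 4 epithelial markers summed to 0.104 to 0.349 CPM after peroxide and 0 to 0.343 CPM in controls. Of these EPCAM and CDH1 had 0 reads, and KRT8 and KRT18 had a few. Among 5 B cell markers CD79A and BLK were tested, and the list summed to 53.0 to 97.5 CPM after peroxide and 50.9 to 95.1 CPM in controls. The treated cells had more CDKN1A, the p21 inhibitor of cyclin-dependent kinases, with 8.70 to 22.4 CPM after peroxide and 0.572 to 1.35 CPM in controls.

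The replication genes changed little and in both directions. Of the 40 genes 8 were higher and 8 lower after peroxide and 24 were not called (edgeR's quasi-likelihood test, Benjamini-Hochberg adjusted p under 0.05 over all genes tested). That is 20% in each direction, where the same test called 24.1% of all genes higher and 24.3% lower, 48.3% together. The median log2 fold change of the 40 genes was -0.06, beside -0.01 over all genes tested, and the values ran from -0.45 for GINS1 to 0.60 for PCNA. The changes were small: 29 of the 40 (72.5%) lay within 0.2 of no change on the log2 scale, against 45.4% of all genes tested, and no 95% interval reached more than 0.20 to either side of its value. None reached a 2-fold change, a size that 6.85% of genes tested had. Only PCNA passed 1.5-fold upward, as did 10.9% of all genes, and 0 passed 1.5-fold downward, as did 4.69%. These shares do not compare like with like, because the 40 genes were better measured. Their median level was 148 CPM against 31.5 CPM over all genes tested, and their median SE 0.061 against 0.092 on the log2 scale. Estimates with larger errors spread farther from 0, and shares among genes of like level were not counted. The 40 genes together took 0.795% ± 0.0291 of gene reads after peroxide and 0.818% ± 0.0289 in controls (SD, n = 8 each). The split depends on scaling: when libraries were scaled by total counts, which moved the median of all genes by -0.06 on the log2 scale, 7 were higher and 16 lower. All genes moved the same way under that scaling, with 2822 higher and 4375 lower, against 3391 and 3419 with TMM factors. In these bulk libraries a change in the share of cells in S phase and a change in RNA per cell cannot be told apart.

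**Figure D1:**
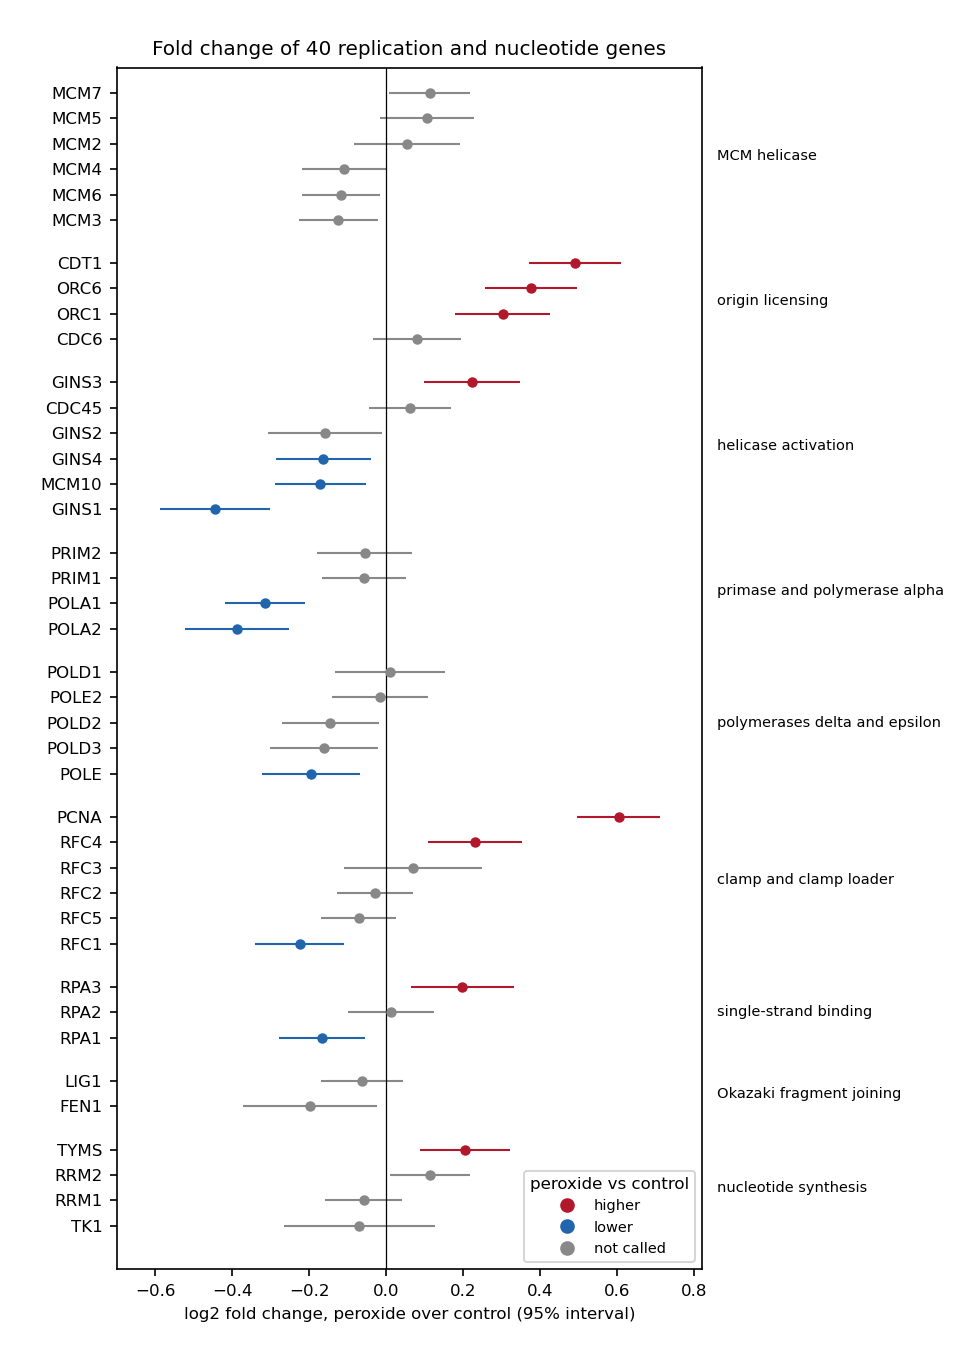
Log2 fold change, peroxide over control, of the 40 replication and nucleotide genes by role, with bars for the 95% interval (n = 8 libraries each). PCNA at 0.60 and CDT1 at 0.49 lie farthest right and GINS1 at -0.45 farthest left, and 24 genes are grey, not called.

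The promoters of these genes held E2F motifs more often than those of all tested genes, and genes moving either way held them. RefSeq windows on GRCh38.p14 from 250 bases before to 50 after a transcription start were found for 34 of the 40 genes, and a gene with several annotated starts counted as holding a motif if any of its windows did. An E2F motif, spelled TTTCCCGC, TTTGGCGC, TTTCGCGC or TTTGCCGC on either strand, occurred in 17 of the 34 (50%), beside 6.75% of the 10296 tested genes with a window and 3.99% of all 27305 genes with one. The motif was held by 4 of 7 genes called higher, 4 of 7 called lower and 9 of 20 not called. Groups of 7 are too small to show whether it goes with direction. The counts depend on the spellings searched. The letters TTTGGCGG, not searched, stand in windows of CDC45 and MCM10, which count as holding none. The CCAAT box, searched on both strands and sharing a letter with an E2F match in a window of MCM7, occurred in 21 of the 34 (61.8%), beside 43.0% of tested genes, and in 3 of 7 genes called higher, 6 of 7 called lower and 12 of 20 not called. The AP-1 motif, TGACTCA or TGAGTCA, occurred in 0 of the 34, beside 4.42% of tested genes. The cAMP response element, TGACGTCA, occurred in 3 of the 34 (8.82%), beside 3.95%, and the CHR motif, TTTGAA or TTCGAA, in 2 of the 34 (5.88%), beside 15.2%. A match describes letters in this window and shows no binding.

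The windows of PCNA, CDT1 and ORC6, which rose in both batches, and of GINS1 and POLA1, which fell in both, are given 5′ to 3′ on the gene's strand, with E2F and CCAAT matches in capitals. PCNA lies at chr20:5126573-5126872 on the minus strand, with 1 E2F and 3 CCAAT matches; the window of its other annotated start, not printed, holds 0 E2F and 2 CCAAT matches. CDT1 lies at chr16:88803539-88803838 on the plus strand with 1 E2F match, and ORC6 at chr16:46689409-46689708 on the plus strand with 2 CCAAT matches. GINS1 at chr20:25407423-25407722 and POLA1 at chrX:24693668-24693967, both on the plus strand, hold 1 E2F and 1 CCAAT match each.
PCNA: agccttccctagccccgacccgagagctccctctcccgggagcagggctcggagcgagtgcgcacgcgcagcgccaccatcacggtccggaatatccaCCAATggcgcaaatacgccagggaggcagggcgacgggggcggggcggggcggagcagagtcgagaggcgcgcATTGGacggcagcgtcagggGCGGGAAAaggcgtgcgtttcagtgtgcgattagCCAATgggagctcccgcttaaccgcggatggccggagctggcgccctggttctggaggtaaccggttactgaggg
CDT1: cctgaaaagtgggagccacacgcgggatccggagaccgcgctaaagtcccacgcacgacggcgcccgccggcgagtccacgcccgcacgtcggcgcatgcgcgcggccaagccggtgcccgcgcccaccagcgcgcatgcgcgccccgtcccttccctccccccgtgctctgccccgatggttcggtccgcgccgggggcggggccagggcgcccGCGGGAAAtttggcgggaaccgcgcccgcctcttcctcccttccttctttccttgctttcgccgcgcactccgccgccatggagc
ORC6: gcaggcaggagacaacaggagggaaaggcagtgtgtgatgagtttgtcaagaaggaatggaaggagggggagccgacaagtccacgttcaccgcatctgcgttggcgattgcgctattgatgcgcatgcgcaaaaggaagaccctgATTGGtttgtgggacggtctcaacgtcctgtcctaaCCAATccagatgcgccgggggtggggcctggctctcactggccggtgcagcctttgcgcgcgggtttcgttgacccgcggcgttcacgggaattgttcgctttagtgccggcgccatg
GINS1: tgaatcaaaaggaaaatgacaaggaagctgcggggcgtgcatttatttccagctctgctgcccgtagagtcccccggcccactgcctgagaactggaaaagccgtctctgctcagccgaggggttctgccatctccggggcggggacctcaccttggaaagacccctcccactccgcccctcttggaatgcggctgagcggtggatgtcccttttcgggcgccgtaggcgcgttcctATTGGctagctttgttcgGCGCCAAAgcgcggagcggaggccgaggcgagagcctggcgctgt
POLA1: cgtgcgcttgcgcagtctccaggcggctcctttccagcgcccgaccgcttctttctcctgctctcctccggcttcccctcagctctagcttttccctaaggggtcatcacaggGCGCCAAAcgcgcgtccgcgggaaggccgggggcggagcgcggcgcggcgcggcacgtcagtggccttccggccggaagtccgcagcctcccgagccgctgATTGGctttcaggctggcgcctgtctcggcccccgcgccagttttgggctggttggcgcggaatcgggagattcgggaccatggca
The E2F letters stand in windows of rising and falling genes alike, and ORC6, which rose, holds none of the 4 spellings.

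Origin licensing was the role with the most rises: ORC1, ORC6 and CDT1 were higher after peroxide and CDC6 was not called. CDT1 (ENSG00000167513.9), which brings the MCM ring to origins and is destroyed once S phase begins, had 214.9, 257.5, 219.5 and 223 CPM in the batch 1 peroxide libraries, against 149.5, 141.5, 173.4 and 172 CPM in the batch 1 controls. In batch 2 it had 375.9, 305.2, 351.8 and 325.7 CPM after peroxide, against 258.9, 234.7, 239.6 and 255 CPM in controls. The groups overlapped only across batches: within each batch every treated library lay above every control, and batch 2 was higher than batch 1 in both groups. The log2 fold change was 0.49 ± 0.06 (SE; edgeR adjusted p = 1.09e-06), or 1.40-fold, with 0.52 in batch 1 and 0.46 in batch 2.

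ORC6 (ENSG00000091651.9), the smallest subunit of the origin recognition complex, ran from 99.9 to 151 CPM with a median of 121 after peroxide, and from 85.4 to 103 CPM with a median of 92.1 in controls. The treated libraries again lay above the controls within each batch, with a wider gap in batch 1. Its log2 fold change was 0.38 ± 0.06 (SE; edgeR adjusted p = 3.05e-05), made of 0.54 in batch 1 and 0.21 in batch 2. ORC1 (ENSG00000085840.13), the ATP-binding subunit that is degraded after licensing in human cells, ran from 73.3 to 105 CPM with a median of 89.9 after peroxide, against 65.2 to 83.9 CPM with a median of 69.9 in controls. The groups were apart in batch 1 and touched in batch 2, where the lowest treated library had 73.28 CPM and the highest control 73.33 CPM. ORC1 changed by 0.30 ± 0.06 on the log2 scale (SE; edgeR adjusted p = 4.29e-04). CDC6, the ATPase that works with ORC in loading, had 146 ± 12.9 CPM after peroxide and 139 ± 9.71 CPM in controls (SD, n = 8 each), a difference of 0.08 with a 95% interval of -0.03 to 0.19. Summed, the 4 licensing genes stood at 643 ± 45.0 CPM after peroxide and 508 ± 49.8 CPM in controls. GMNN, which encodes geminin, the protein that binds and inhibits CDT1, was higher as well, with a log2 fold change of 0.22 ± 0.06 (SE; edgeR adjusted p = 0.00239).

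PCNA (ENSG00000132646.11), the sliding clamp of replication and of several repair pathways, rose the most of the 40 genes. It had 583, 574.6, 547.1 and 609.5 CPM in the batch 1 peroxide libraries, against 423.4, 405.5, 393.4 and 366.6 CPM in the batch 1 controls. In batch 2 it had 498, 432.5, 418 and 450.1 CPM after peroxide, against 295.8, 264.4, 275.9 and 299.3 CPM in controls. Every treated library exceeded every control of its batch, and the lowest treated library of batch 2 was just under the highest control of batch 1. Over all libraries PCNA averaged 514 ± 74.5 CPM after peroxide and 341 ± 63.5 CPM in controls (SD, n = 8 each), 1.52-fold, and the log2 fold change of 0.60 ± 0.05 (SE; edgeR adjusted p = 1.07e-08) kept its call under every alternative tried. Groups that did not overlap in either batch, with the treated libraries higher in both, were found for PCNA, CDT1 and ORC6, 3 of 40, where 10.5% of all genes tested showed the same.

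**Figure D2:**
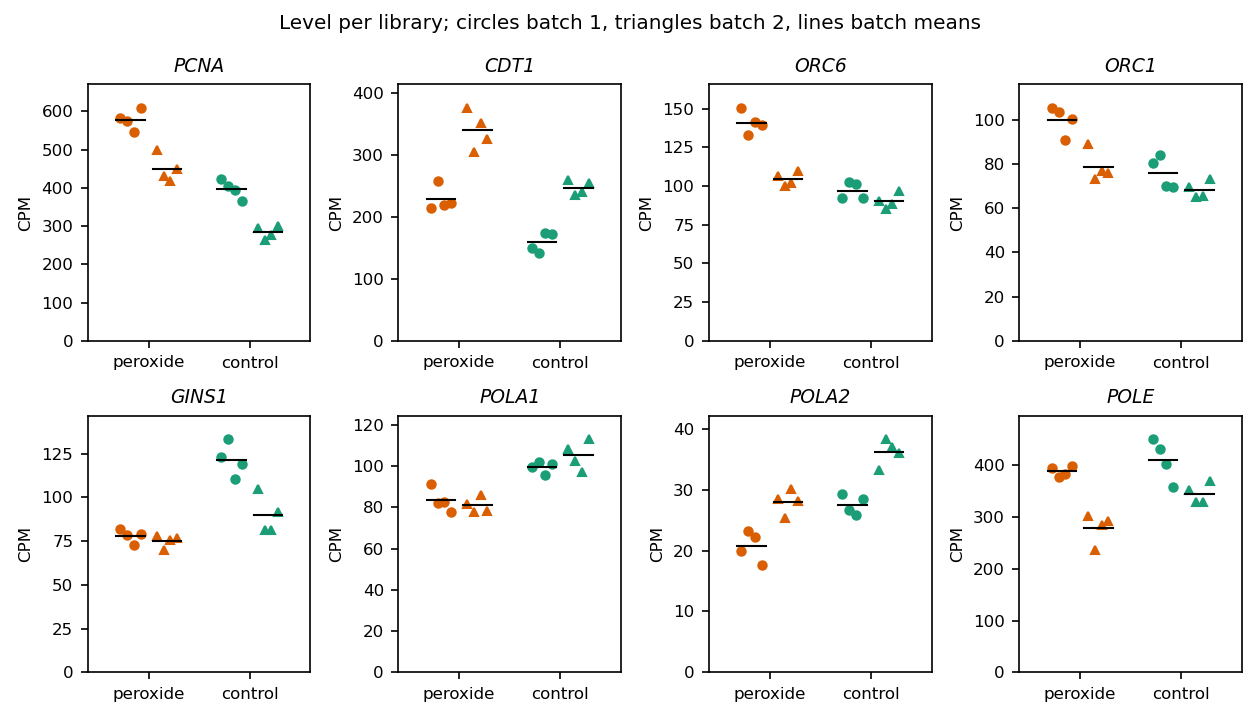
CPM in each library for the 8 genes shown (y axes start at 0; peroxide at left, control at right; circles batch 1, triangles batch 2, lines batch means of 4 libraries). PCNA, CDT1 and ORC6 lie above their batch's controls in every treated library, and GINS1, POLA1 and POLA2 lie below them.

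Of the 5 clamp loader genes 1 was higher and 1 lower. RFC4, a small subunit of the pentamer that opens the PCNA ring, was higher, with 137.5 to 179.8 CPM after peroxide and 126 to 154 CPM in controls (log2 fold change 0.23 ± 0.06 SE; edgeR adjusted p = 0.00435). RFC1, the large subunit, was lower, with 191 ± 14.9 CPM after peroxide and 224 ± 24.0 CPM in controls, a log2 fold change of -0.23 ± 0.06 (SE; edgeR adjusted p = 0.00327). When the batches were analysed one at a time, RFC4 was called in batch 1 and RFC1 in batch 2, and both had the same sign in each batch. RFC2, RFC3 and RFC5, the other small subunits, were not called, with log2 fold changes of -0.03, 0.07 and -0.07.

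No subunit of the MCM2 to MCM7 ring, the motor of the replicative helicase, was called. Their log2 fold changes lay between -0.13 and 0.11, and the 6 transcripts summed to 2760 ± 165 CPM after peroxide and 2780 ± 321 CPM in controls (SD, n = 8 each). MCM3, MCM4 and MCM6 were on the lower side and MCM2, MCM5 and MCM7 on the higher side. MCM3 ran from 435.4 to 505 CPM with a median of 480.4 after peroxide, against 471.3 to 602.7 CPM with a median of 521.1 in controls, and at -0.13 ± 0.05 (SE; edgeR adjusted p = 0.0524) it fell just short of a call. DESeq2 called MCM3, MCM6, MCM7 and, among the nucleotide enzymes, RRM2. MCM7, the most abundant member of the ring in CPM, had 810.6 to 984.9 CPM with a median of 835.8 after peroxide and 719.8 to 887.4 CPM with a median of 785.7 in controls, a difference of 0.11 ± 0.05 (SE; edgeR adjusted p = 0.0876).

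The factors that turn loaded MCM rings into moving helicases were mixed, with 1 of 6 higher and 3 lower. GINS1 (ENSG00000101003.10), a subunit of the 4-part GINS complex, had the largest fall of the 40 genes. It had 81.7, 78.4, 72.7 and 79.2 CPM after peroxide in batch 1, against 123, 133.2, 110.8 and 118.9 CPM in controls. In batch 2 it had 77.9, 70.1, 75.5 and 77.1 CPM after peroxide, against 105, 81.6, 81.3 and 91.7 CPM in controls. The treated libraries were alike in both batches and lay under every control of their own batch, while the controls were higher in batch 1. The log2 fold change was -0.45 ± 0.07 (SE; edgeR adjusted p = 3.32e-05), with -0.64 in batch 1 and -0.25 in batch 2.

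Of the other GINS subunits 1 was higher, 1 lower and 1 not called. GINS3 was higher, with 54.2 ± 5.19 CPM after peroxide and 46.7 ± 6.62 CPM in controls (SD, n = 8 each; log2 fold change 0.22; edgeR adjusted p = 0.00636), a call lost with no filter, without the batch term and in batch 1 alone. GINS4 was lower, with 50.5 ± 4.19 CPM after peroxide and 56.7 ± 4.48 CPM in controls (log2 fold change -0.16; edgeR adjusted p = 0.0358). GINS2 was not called, with 67.9 CPM after peroxide and 75.9 CPM in controls (edgeR adjusted p = 0.0844). The call of GINS4 was lost when any of 5 libraries was left out, peroxide 3, 4 or 6 or control 2 or 8 (edgeR adjusted p up to 0.0797). MCM10, a scaffold that helps split and activate the paired helicases, was lower, with 128 ± 11.6 CPM after peroxide and 144 ± 14.8 CPM in controls (edgeR adjusted p = 0.0243), and lost its call without peroxide library 3 or 6 (edgeR adjusted p up to 0.0538), without the batch term and in batch 2 alone. CDC45, which bridges MCM and GINS, had 190 CPM after peroxide and 183 CPM in controls and was not called.

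Both subunits of DNA polymerase alpha fell and both primase subunits were not called, although the 4 proteins work as 1 complex that makes the RNA-DNA primer. POLA1 (ENSG00000101868.11), the catalytic subunit, had 77.9 to 91.6 CPM with a median of 81.9 after peroxide, and 95.5 to 113 CPM with a median of 102 in controls. It was the only 1 of the 40 genes whose treated and control libraries did not overlap at all, lower after peroxide, as were 4.49% of all genes tested, while 11.3% did not overlap in either direction. The log2 fold change was -0.31 ± 0.05 (SE; edgeR adjusted p = 4.36e-05). POLA2 (ENSG00000014138.9), the accessory B subunit, had 19.97, 23.3, 22.3 and 17.6 CPM after peroxide in batch 1, against 29.2, 26.6, 25.8 and 28.4 CPM in controls. In batch 2 it had 28.4, 25.3, 30.1 and 28.2 CPM after peroxide, against 33.2, 38.3, 36.9 and 36.04 CPM in controls. Each batch was separated, and its log2 fold change of -0.39 ± 0.07 (SE; edgeR adjusted p = 8.31e-05) was -0.41 in batch 1 and -0.37 in batch 2. PRIM1, the catalytic subunit of primase, had 56.8 CPM after peroxide and 59.4 CPM in controls, and PRIM2, its large subunit, 39.5 CPM after peroxide and 41.1 CPM in controls. The 95% intervals of their log2 fold changes were -0.17 to 0.05 for PRIM1 and -0.18 to 0.07 for PRIM2. GINS1, POLA1 and POLA2, 3 of the 40, were lower in every treated library than in every control of the same batch in both batches, where 8.74% of all genes tested showed the same.

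Of the 5 genes of polymerases delta and epsilon 1 was called. POLE, the catalytic subunit of the leading-strand polymerase, ran from 235.4 to 397.6 CPM with a median of 339.9 after peroxide, against 329.3 to 449.9 CPM with a median of 363.4 in controls. The groups overlapped over all libraries and in batch 1 and were apart in batch 2. Its log2 fold change was -0.20 ± 0.06 (SE; edgeR adjusted p = 0.0168), and the call was lost without the batch term and in batch 1 alone. POLE2, an accessory subunit, stood at 40.4 CPM after peroxide and 41.0 CPM in controls. POLD1, the catalytic subunit of polymerase delta, averaged 221 CPM in both groups, with a log2 fold change of -0.18 in batch 1 and 0.20 in batch 2. POLD2 and POLD3, accessory subunits of polymerase delta, had log2 fold changes of -0.15 and -0.16 and were not called (edgeR adjusted p = 0.0684 and 0.0682).

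Of the 3 subunits of RPA, the trimer that coats single-stranded DNA, 1 was higher, 1 lower and 1 not called. RPA1, the large DNA-binding subunit, was lower, with 241 ± 17.1 CPM after peroxide and 273 ± 40.1 CPM in controls (SD, n = 8 each; edgeR adjusted p = 0.0191). Its log2 fold change was -0.30 in batch 1 and -0.03 in batch 2, and the call was lost in batch 2 alone and without the batch term. RPA3, the smallest subunit, was higher, with 72.5 ± 3.18 CPM after peroxide and 63.5 ± 9.32 CPM in controls (edgeR adjusted p = 0.0212), with log2 fold changes of 0.02 in batch 1 and 0.37 in batch 2, and the call was lost without control library 5 (edgeR adjusted p = 0.0559) and with total counts. RPA2, the subunit phosphorylated in the checkpoint response, had a log2 fold change of 0.01 with a 95% interval of -0.10 to 0.12. LIG1, the ligase that seals Okazaki fragments, had 193 CPM after peroxide and 201 CPM in controls and was not called.

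Among the 4 nucleotide enzymes 1 was higher. TYMS, thymidylate synthase, which makes dTMP from dUMP, ran from 243.9 to 310.8 CPM with a median of 267.3 after peroxide, against 218.4 to 260.2 CPM with a median of 234.1 in controls. The ranges overlapped, and the log2 fold change was 0.20 ± 0.06 (SE; edgeR adjusted p = 0.00760), with 0.13 in batch 1 and 0.28 in batch 2. The call was lost with no filter on low counts and in batch 1 alone. RRM1 and RRM2, the large and small subunits of ribonucleotide reductase, were not called. RRM1 had 334 CPM after peroxide and 349 CPM in controls, and RRM2 had 426 CPM after peroxide and 396 CPM in controls (edgeR adjusted p = 0.0818). RRM2B, the p53-inducible small subunit, was not called either, with 27.6 ± 5.07 CPM after peroxide and 31.1 ± 4.83 CPM in controls (edgeR adjusted p = 0.119).

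In edgeR the batches gave different answers for 3 of the 40 genes, and none of these calls held with every library left out in turn. The interaction of batch and treatment was called for MCM2, FEN1 and TK1 (edgeR quasi-likelihood test, Benjamini-Hochberg adjusted over all genes), 7.5% of the 40, where it was called for 4.88% of all genes tested. TK1, the cytosolic thymidine kinase of the salvage pathway, had 32.8, 48.3, 37.5 and 29.4 CPM after peroxide in batch 1, against 45.8, 46.3, 51.7 and 48.3 CPM in controls. In batch 2 it had 59.4, 61.2, 58.5 and 57.7 CPM after peroxide, against 49.7, 51.7, 51.2 and 50.6 CPM in controls. TK1 was thus lower in 3 of 4 treated libraries than in any control of batch 1 and higher in all 4 treated libraries of batch 2, with log2 fold changes of -0.39 and 0.22 in the 2 batches and a difference of 0.61 (edgeR adjusted p = 0.0249). FEN1, the nuclease that trims the flaps of Okazaki fragments, had 163.9, 189.7, 163 and 153.9 CPM after peroxide in batch 1, against 229.3, 257.4, 216.2 and 216.4 CPM in controls. In batch 2 it had 171, 131.3, 127 and 122.4 CPM after peroxide, against 136.9, 125.1, 132.3 and 134.9 CPM in controls. FEN1 was below all controls in batch 1 and mixed with them in batch 2, a difference in log2 fold change of 0.52 (edgeR adjusted p = 0.0324).

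MCM2 went opposite ways by batch, without overlap of treated and control libraries in either batch. It had 302.6 to 327.7 CPM after peroxide and 338.3 to 354.7 CPM in controls in batch 1, and 274 to 346.3 CPM after peroxide and 236.1 to 270.1 CPM in controls in batch 2. Its log2 fold change was -0.14 in batch 1, not called there (edgeR adjusted p = 0.143), and 0.25 in batch 2 (edgeR adjusted p = 0.0346). The difference between the batches was 0.38 (edgeR adjusted p = 0.0461). How many of all genes were separated in opposite directions was not counted. These 3 interaction calls were not firm: with 1 library left out at a time the adjusted p in edgeR reached 0.106 for MCM2, 0.0719 for FEN1 and 0.0535 for TK1, and DESeq2 called 10 of the 40 genes, where it called 8.97% of all genes with an adjusted p. MCM4 had no interaction call (0.22 on the log2 scale; edgeR adjusted p = 0.212). It had 467 to 532 CPM after peroxide and 556 to 593 CPM in controls in batch 1. In batch 2 it had 306 to 353 CPM after peroxide and 308 to 345 CPM in controls. Analysed alone, batch 1 called 5 of the 40 higher and 9 lower, where it called 20.4% of genes higher and 17.2% lower, and batch 2 called 10 higher and 6 lower, where it called 19.4% and 19.1%. The sign was the same in both batches for 29 of the 40 (72.5%), 13 higher and 16 lower, as it was for 71.8% of all genes tested.

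**Figure D3:**
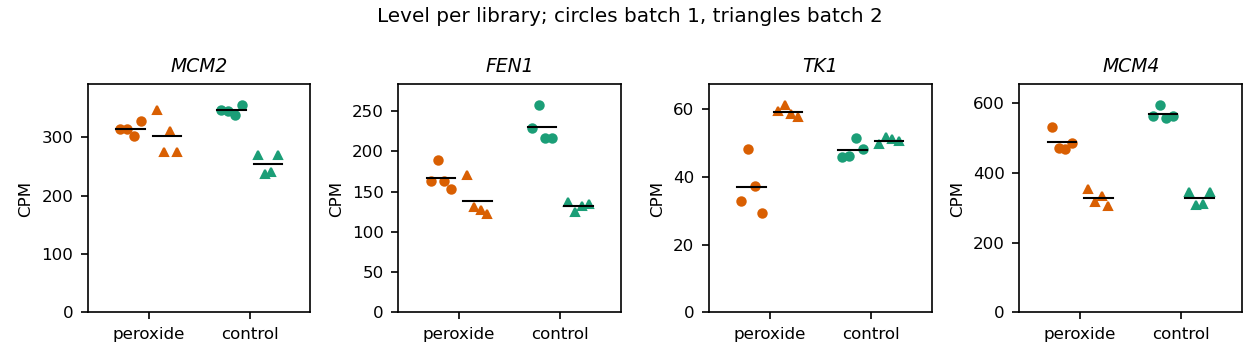
CPM in each library of MCM2, FEN1, TK1 and MCM4 (peroxide at left, control at right; circles batch 1, triangles batch 2, lines batch means of 4 libraries). The treated circles of MCM2, FEN1 and MCM4 lie below the control circles, while the treated triangles of MCM2 and TK1 lie above the control triangles.

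**Figure D4:**
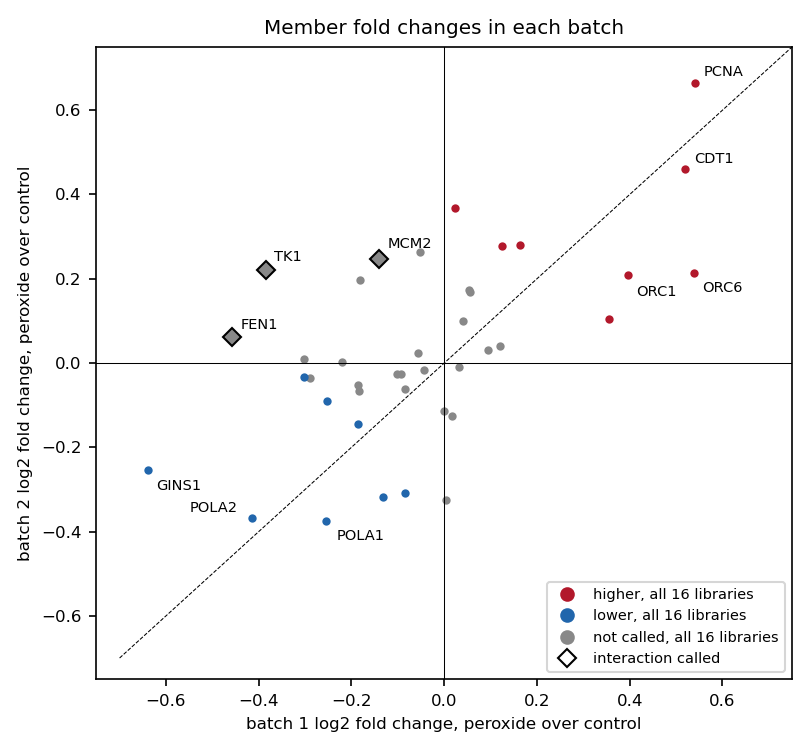
Log2 fold change, peroxide over control, of the 40 genes in batch 1 (x axis) and batch 2 (y axis), coloured by the call over all 16 libraries, with diamonds for a called interaction and a dashed line of equality. PCNA and CDT1 lie near the line at upper right, POLA1 and POLA2 at lower left, and TK1, FEN1 and MCM2 stand off at upper left.

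Levels can be set against each other only per length, here as CPM per kilobase of the exons that GENCODE release 29 annotates for each gene. This length joins the exons of all annotated transcripts of a gene and can exceed that of the transcripts the cells express. It was 7338 bases for MCM5 and 4386 for MCM7, so ranks and ratios between genes are approximate. PCNA was the highest of the 40 in both groups, with 350 CPM per kilobase after peroxide and 231 in controls, followed by MCM7 with 196 after peroxide and 181 in controls. CDT1 had 85.2 CPM per kilobase after peroxide and 60.9 in controls, which put it at rank 6 after peroxide and rank 14 in controls. Subunits that share a complex in equal number did not have equal values on this scale. Among MCM2 to MCM7 the treated means ran from 48.7 CPM per kilobase for MCM5 to 196 for MCM7. Among the GINS genes they ran from 9.23 for GINS4 to 20.8 for GINS2. How much of these gaps comes from the length used was not tested. POLA2 was the lowest of the 40, with 4.26 CPM per kilobase after peroxide and 5.56 in controls. In 6 of the 40 genes, MCM2, GINS4, POLA2, PRIM1, RRM2 and TYMS, over 20% of the exon length overlaps another annotated gene, up to 46.6% in TYMS, and their levels are uncertain. The overlapping genes of POLA2 and RRM2 lie on the same strand, and those of MCM2, GINS4 and TYMS on the opposite strand, where separating the reads would need a known strand setting.

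Other genes of the pathway were read from lists by role. Beside the counts of each list stand the shares over all genes tested, 24.1% higher and 24.3% lower. Of 30 other replication factors 3 were higher and 6 lower, with a median log2 fold change of -0.01. CLSPN, which encodes claspin, the adaptor between stalled forks and the CHK1 kinase, fell the most of those named, with 104 ± 10.8 CPM after peroxide and 144 ± 18.3 CPM in controls (SD, n = 8 each; log2 fold change -0.47; edgeR adjusted p = 1.74e-06). WDHD1, which links polymerase alpha to the helicase, was lower, with 109 ± 8.59 CPM after peroxide and 132 ± 10.2 CPM in controls (edgeR adjusted p = 6.45e-04). TOP2A, the topoisomerase that untangles sister DNA, was lower by -0.28 ± 0.07 on the log2 scale (SE; edgeR adjusted p = 0.00260). DONSON, which helps deliver GINS to MCM, was higher by 0.28 ± 0.06 (SE; edgeR adjusted p = 0.00108).

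Of 29 other nucleotide enzymes 27 were tested, with 3 higher and 7 lower and a median log2 fold change of -0.10. The named genes CAD, DHODH and UCK2 were lower and IMPDH2 higher. DHODH, the mitochondrial dehydrogenase of the de novo pathway, had 24.2 ± 3.33 CPM after peroxide and 34.5 ± 3.63 CPM in controls (SD, n = 8 each), with no overlap and a log2 fold change of -0.51 ± 0.07 (SE; edgeR adjusted p = 6.57e-06). CAD, the enzyme of the first steps, had 267 ± 19.6 CPM after peroxide and 354 ± 60.7 CPM in controls (edgeR adjusted p = 5.14e-06). UCK2, the uridine-cytidine kinase of the salvage pathway, had 103.7 to 135.7 CPM after peroxide and 139.9 to 212.6 CPM in controls, again without overlap (edgeR adjusted p = 1.14e-06). IMPDH2, the rate-limiting enzyme of guanine nucleotide synthesis, was higher, with 502 ± 69.2 CPM after peroxide and 357 ± 44.1 CPM in controls (edgeR adjusted p = 1.17e-06).

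Among the regulators of these genes cyclin E1 rose and SKP2 fell. Of 17 genes of the E2F and RB family with cyclin E and its ligase 5 were higher and 6 lower. Genes were named by smallest p-value or as fixed examples, and SKP2 is the only one named of the 6 lower. CCNE1, which encodes cyclin E1, the partner of CDK2 at the start of S phase, had 18.1 to 38.8 CPM with a median of 26.8 after peroxide, against 11.1 to 16.4 CPM with a median of 12.3 in controls. The groups did not overlap, and the log2 fold change was 1.07 ± 0.13 (SE; edgeR adjusted p = 1.08e-06). SKP2, the F-box protein that marks p27 and CDT1 for destruction, had 43.5 to 62.05 CPM with a median of 54.2 after peroxide, against 72.6 to 147 CPM with a median of 108 in controls. These groups did not overlap either, and the log2 fold change was -0.98 ± 0.11 (SE; edgeR adjusted p = 2.85e-07), with -1.35 in batch 1 and -0.61 in batch 2. E2F1, the best-known activator of replication genes, was not called, with 118 ± 15.3 CPM after peroxide and 112 ± 13.4 CPM in controls (edgeR adjusted p = 0.324). E2F3, another activator, was higher by 0.45 ± 0.07, E2F6, a repressor, by 0.59 ± 0.08 and CCNE2, cyclin E2, by 0.25 ± 0.07 on the log2 scale (SE; edgeR adjusted p = 1.30e-05, 7.08e-06 and 0.00641).

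Of 11 genes of chromatin assembly behind the fork 3 were higher and 3 lower. NASP, a chaperone that holds the histone H3-H4 reserve, had 527.6 to 930.0 CPM after peroxide and 350.9 to 560.5 CPM in controls, and a log2 fold change of 0.71 ± 0.07 (SE; edgeR adjusted p = 2.15e-08). RBBP4, a subunit of the CAF-1 assembly factor, was higher by 0.30 ± 0.06 and ASF1A, a chaperone of H3-H4, by 0.30 ± 0.08 (SE; edgeR adjusted p = 1.39e-04 and 0.00256). UHRF1, which recruits the maintenance DNA methyltransferase, was lower by -0.28 ± 0.08 on the log2 scale (SE; edgeR adjusted p = 0.00490), with -0.52 in batch 1 and -0.05 in batch 2.

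**Figure D5:**
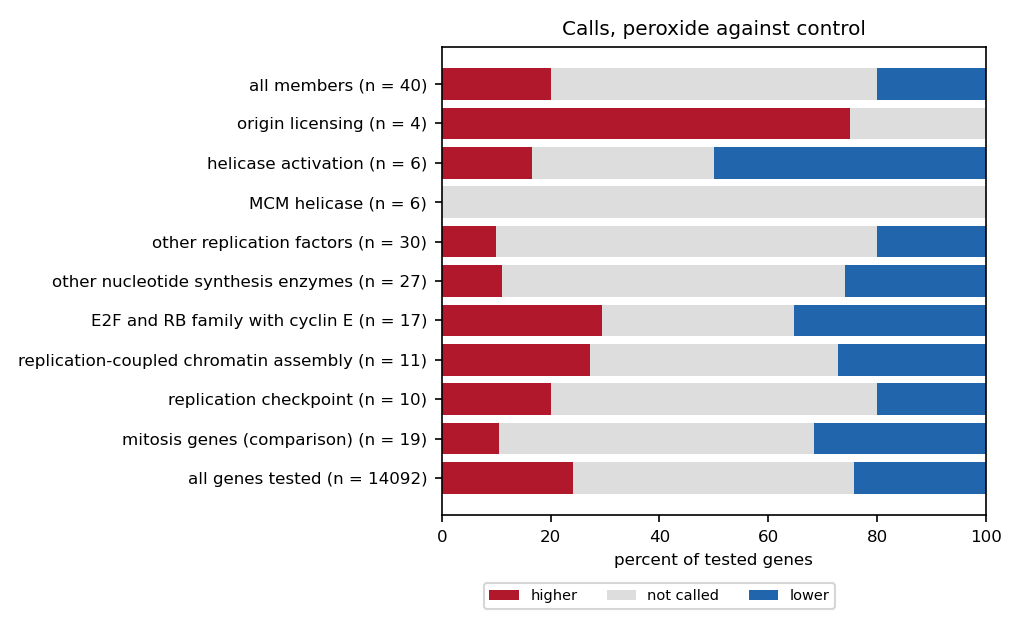
Share of tested genes called higher, not called and called lower after peroxide (x axis, percent) for the 40 genes, 3 of their roles, the other lists and all genes tested. Of the 40 genes 20% were higher and 20% lower, against 24.1% and 24.3% of all genes, with 3 of 4 licensing genes higher and 0 of 6 MCM genes called.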

How the data were processed

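RNA was isolated with TRIzol and made into Illumina TruSeq libraries, per the labels' protocols, and the labels call the libraries biological replicates. Whether these were separate cultures is not stated, so p-values measure the spread between libraries, which may be partly technical. The authors deposited unnormalized read counts, as whole numbers for each gene, in a table for each library. STAR 2.7.1a, HTSeq 0.6.1 and hg19 were named, per the submitters' processing notes. The gene identifiers belong to a later annotation than that build, so no gene coordinates were taken from the files, and the promoter windows and exon lengths come from GRCh38 references. The sources used here do not give the strand setting or what a batch stands for. Rows naming no gene held 43.5% to 57.6% of counted reads and were left out of library sizes.

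The 14092 genes passing edgeR's filterByExpr held 99.6% of gene reads. After TMM scaling the counts entered the quasi-likelihood test of edgeR 4.0.16 in R 4.3.3, with batch and treatment as terms and Benjamini-Hochberg adjustment over all genes tested. Standard errors are the fold change over the square root of F, and 95% intervals follow from them. The smallest count of any of the 40 genes in a library was 142. Libraries of a group differed by more than sampling noise (chi-square per degree of freedom 3.02 to 50.5), so all 16 were kept. The script was tested on simulated data.

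All 40 genes are named, with the 4 smallest p-values per list at 5 CPM or more and a few fixed examples. A gene that this rule takes is not reported here. The genes and lists were chosen with earlier results of these data known, so no count over them is independent support. Alternatives were DESeq2 1.42.0, limma 3.58.1 voom, total counts, no filter, no batch term, a replicate block, each batch alone, leaving out libraries, and upper-quartile scaling, the last chosen after seeing the data. Gene symbols matched 60402 identifiers, and promoters came from RefSeq on GRCh38.p14.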

Additional observations from a re-analysis of the deposited data

Results flagged for a closer look

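Batch and treatment interacted for 5 of the named genes. The log2 fold change in batch 2 exceeded that in batch 1 by 0.38 for MCM2, 0.52 for FEN1 and 0.61 for TK1 among the 40 genes, and by 0.74 for SKP2 and 0.47 for UHRF1 among the others. For SKP2 and UHRF1 this was a smaller fall in batch 2, and for FEN1, TK1 and MCM2 the sign differed between the batches. Within single batches TK1 was called in both, FEN1 in batch 1 alone and MCM2 in batch 2 alone.

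Single libraries stood apart from the others of their group for 4 of the 40 genes. GINS4 reached 67.2 CPM in control library 2, with the next control at 57.3 CPM. PRIM2 reached 46.9 CPM in peroxide library 1, with the next at 39.2 CPM. POLD3 reached 98.4 CPM in the same peroxide library, with the next at 83.2 CPM, and without that library POLD3 was called lower (edgeR adjusted p = 0.00245). RPA1 reached 279.4 CPM in peroxide library 2, with the next at 244.5 CPM. Among the other named genes WDHD1 reached 126.7 CPM in peroxide library 1 and DONSON was lowest in control library 2 at 43.3 CPM. The share of reads not aligned uniquely was highest in control library 1 at 47.2%, with the next control at 33.7%. In all 7 of 144 groups were marked, each for a gap to the nearest library, as a share of the group's range, above Dixon's 95% critical value, which chance exceeds in about 1 in 20 groups.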

How the results depend on the processing

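The calls of PCNA, CDT1, ORC1, ORC6, GINS1, POLA1 and POLA2 held under every alternative run, each batch alone and each library left out included. The count of the 40 genes called higher, 8, was 5 with no filter and 5 in batch 1 alone. The count called lower, 8, was 16 with total counts, 13 with no filter and 4 with no batch term. With 1 library left out the counts were 7 to 8 higher and 6 to 12 lower. With no filter 5150 of all genes were called higher and 4326 lower, and with no batch term 2534 higher and 2454 lower. With total counts 2822 of all genes were higher and 4375 lower, against 3391 and 3419 with TMM factors. TK1 reversed to 0.22 on the log2 scale in batch 2 alone. DESeq2 called the interaction of batch and treatment for 10 of the 40 genes and 8.97% of all genes. The cause of these differences was not tested. Replicate numbers shared between the groups correlated at 0.206 to 0.553 around group means and at -0.155 to 0.171 once batch was taken out, so they were not treated as pairs beyond the batch. The replicate block in place of batch left 8 higher and 8 lower, all 40 calls unchanged, and ended the call of CHEK1 (edgeR adjusted p = 0.0524). Without a batch term GINS3, GINS4, MCM10, POLE, RPA1 and RPA3 were no longer called. Each comparison rests on 1 cell line and 1 time, and levels of genes that overlap others are uncertain.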

Other observations

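The replication checkpoint and mitosis genes, 2 lists beside the replication machinery, also held calls in both directions. Over all genes tested 24.1% were higher and 24.3% lower. Of 10 checkpoint genes 2 were higher and 2 lower, with a median log2 fold change of -0.01. HUS1, a subunit of the 9-1-1 checkpoint clamp, was higher, with 35.4 ± 8.29 CPM after peroxide and 27.1 ± 3.47 CPM in controls (SD, n = 8 each; edgeR adjusted p = 0.00220). CHEK1, the effector kinase of ATR, was higher by 0.16 ± 0.06 on the log2 scale (SE; edgeR adjusted p = 0.0314), and with the replicate block in place of batch it was not called (edgeR adjusted p = 0.0524). ATR, the kinase that senses RPA-coated DNA, was lower, with 85.9 ± 22.8 CPM after peroxide and 100.0 ± 14.5 CPM in controls (edgeR adjusted p = 0.00990). ETAA1, an activator of ATR, was lower, with 34.9 ± 6.49 CPM after peroxide and 45.0 ± 6.89 CPM in controls (edgeR adjusted p = 0.00791).

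Of 20 mitosis genes 19 were tested, with 2 higher and 6 lower and a median log2 fold change of -0.04. CENPF, a kinetochore protein of G2 phase and mitosis, was lower, with 364 ± 91.5 CPM after peroxide and 512 ± 95.5 CPM in controls (edgeR adjusted p = 6.12e-06). CCNA2, cyclin A2, was lower by -0.33 ± 0.06 and MKI67, the Ki-67 proliferation marker, by -0.37 ± 0.07 on the log2 scale (SE; edgeR adjusted p = 2.62e-04 and 3.26e-04). UBE2C, the ubiquitin-conjugating enzyme of the anaphase-promoting complex, was higher by 0.31 ± 0.07 (SE; edgeR adjusted p = 0.00124).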
